A study of Mus musculus with 36 samples.

Results

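The regions described here are 305 DNase I hypersensitive sites (DHSs) that were more accessible in the livers of phenobarbital (PB)-treated mice than of vehicle-treated mice in both C57BL/6 and B6C3F1. They were chosen on the measured DNase-seq values. Within each strain, every PB-treated mouse had to exceed every vehicle-treated mouse, and the PB mean had to be at least 1.5 times the vehicle mean. Of 98170 DHSs in the table, 96287 lay on autosomes, and 305 of these (0.317%) met both conditions in both strains. The rule was met by 846 autosomal DHSs in C57BL/6 and by 967 in B6C3F1. The mirror rule, with vehicle above PB in both strains, was met by 37.

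DNase-seq and RNA-seq were run on the same 18 male mice, and each strain contributed 5 mice on PB and 4 on vehicle. The treated mice drank water with 0.05% (wt/vol) PB over 91 d, and the vehicle mice drank it without PB. C57BL/6 is an inbred strain, entered the study at an age of 9 to 11 wk and came from Taconic. B6C3F1 is a first-generation hybrid bred from a C57BL/6 mother and a C3H/He father. Its mice entered at 4 to 5 wk and came from Charles River. Strain therefore cannot be told apart from age, supplier and study. Each sample was 1 mouse, and the number given to a mouse is the final digit of its animal number within its group.

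DNase I cuts DNA that is not packed tightly in nucleosomes, so reads gather over promoters, enhancers and other regulatory elements. PB is a barbiturate that activates the constitutive androstane receptor (CAR, encoded by Nr1i3), a nuclear receptor of hepatocytes that switches on genes of drug metabolism. CAR pairs with RXR and is known to bind 2 copies of a short element repeated in the same direction with a spacer of 4 bases, called a DR4. The best-known target is Cyp2b10, a cytochrome P450, which has a PB-responsive enhancer upstream of its promoter.

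Between 7.01 and 58.1 M reads per mouse lay in DHSs, the fewest in vehicle-treated B6C3F1 mouse 3. Between 23.8 and 30.3 M reads per mouse lay in genes. DNase values are normalized counts, the reads in a DHS times 1 factor per mouse, and no DNase value was below 1 read. Whether a value of 1 read stands for a read or for none thus cannot be told, also in the read totals given below. RNA values are in CPM, the reads of a gene relative to the scaled size of its library. The summed level of 6 hepatocyte markers was 66525 to 83203 CPM under vehicle and 63288 to 72334 CPM with PB in C57BL/6, and 80141 to 86491 CPM under vehicle and 62996 to 78277 CPM with PB in B6C3F1. It was thus lower in every PB-treated than in every vehicle-treated B6C3F1 mouse, while the groups overlapped in C57BL/6, and its part in the results was not tested. The summed levels of 5 endothelial, 5 macrophage, 5 stellate and 5 biliary markers overlapped between treatments in both strains. No single marker of these 5 lists passed the RNA cutoffs given below. The lists do not cover all cell types of the liver, and nothing is said here of the others. In bulk liver, a change in the number of cells of a type and a change within each cell cannot be told apart.

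The sequences of the 300 bases around the centre of 7 of the 305 DHSs follow, from RefSeq GRCm38.p6, which has the coordinates of mm10, on its plus strand. The first 3 are shown because they had the largest smaller-of-both-strains ratio of PB to vehicle. In them, capitals mark every single copy, on either strand, of the element AGGTCA or of its variants, which read AGTTCA in one case, GGGTCA in another and GGTTCA in the last, and none of the 3 windows holds a DR4 made of them. The other 4 are shown because they hold a DR4, and were picked after their values were seen. In these, capitals mark the DR4 with its spacer.
Upstream of Cyp2b10, chr7:25891988-25892287: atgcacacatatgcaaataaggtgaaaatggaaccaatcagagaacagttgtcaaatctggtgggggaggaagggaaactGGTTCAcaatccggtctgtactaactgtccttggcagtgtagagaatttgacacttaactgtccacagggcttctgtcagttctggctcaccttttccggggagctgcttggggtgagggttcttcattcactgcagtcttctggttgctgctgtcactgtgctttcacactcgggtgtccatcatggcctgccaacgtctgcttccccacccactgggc
Intron of Cabin1, nearest transcription start site (TSS) Susd2, chr10:75675265-75675564: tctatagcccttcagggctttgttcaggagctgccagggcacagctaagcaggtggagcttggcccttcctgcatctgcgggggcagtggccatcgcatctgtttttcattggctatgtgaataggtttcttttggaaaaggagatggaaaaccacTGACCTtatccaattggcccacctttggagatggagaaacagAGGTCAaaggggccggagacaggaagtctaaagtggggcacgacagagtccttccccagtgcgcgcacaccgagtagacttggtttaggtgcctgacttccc
Intron of Micall2, chr5:139707195-139707494: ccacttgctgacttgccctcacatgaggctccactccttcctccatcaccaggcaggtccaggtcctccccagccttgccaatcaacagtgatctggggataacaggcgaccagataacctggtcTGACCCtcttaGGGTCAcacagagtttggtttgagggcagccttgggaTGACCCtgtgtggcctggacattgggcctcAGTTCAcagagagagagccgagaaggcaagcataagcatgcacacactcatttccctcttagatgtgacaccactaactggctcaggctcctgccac
Between genes, nearest TSS Gm16497, chr12:14209864-14210163: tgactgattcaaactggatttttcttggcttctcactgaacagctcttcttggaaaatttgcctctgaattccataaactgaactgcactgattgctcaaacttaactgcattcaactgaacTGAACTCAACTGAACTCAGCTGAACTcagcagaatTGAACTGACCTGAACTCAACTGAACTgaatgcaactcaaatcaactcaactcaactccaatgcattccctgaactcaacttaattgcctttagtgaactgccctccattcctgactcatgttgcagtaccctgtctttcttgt
Intron of Rnps1, chr17:24418652-24418951: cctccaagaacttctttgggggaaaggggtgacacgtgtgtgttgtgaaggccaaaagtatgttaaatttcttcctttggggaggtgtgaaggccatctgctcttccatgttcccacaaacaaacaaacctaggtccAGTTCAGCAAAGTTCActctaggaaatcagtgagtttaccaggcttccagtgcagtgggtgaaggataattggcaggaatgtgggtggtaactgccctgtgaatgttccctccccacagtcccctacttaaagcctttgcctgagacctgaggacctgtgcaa
Intron of Adamtsl1, chr4:86066296-86066595: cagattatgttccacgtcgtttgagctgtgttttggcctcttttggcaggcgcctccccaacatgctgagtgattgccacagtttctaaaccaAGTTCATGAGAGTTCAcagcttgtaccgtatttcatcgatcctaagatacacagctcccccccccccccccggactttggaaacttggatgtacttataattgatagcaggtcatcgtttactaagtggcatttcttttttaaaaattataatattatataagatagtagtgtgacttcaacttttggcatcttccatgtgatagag
Intron of Stat3, chr11:100921129-100921428: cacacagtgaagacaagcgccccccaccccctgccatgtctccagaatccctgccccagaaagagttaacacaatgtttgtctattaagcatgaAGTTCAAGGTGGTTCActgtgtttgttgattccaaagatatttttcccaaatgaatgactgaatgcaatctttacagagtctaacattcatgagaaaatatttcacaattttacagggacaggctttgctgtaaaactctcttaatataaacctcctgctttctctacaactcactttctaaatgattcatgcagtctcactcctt

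Under vehicle, the 305 DHSs were weakly accessible, and PB brought them to about the level of a typical DHS. Their median normalized count was 42.5 to 46.5 in the vehicle-treated and 95.3 to 124.7 in the PB-treated C57BL/6 mice. In B6C3F1 it was 26.3 to 36.9 in vehicle-treated and 90.3 to 115.8 in PB-treated mice. The median over all autosomal DHSs stayed between 110.5 and 118.3 in all 18 mice. The 305 DHSs held 0.0634 to 0.0839% of the autosomal DNase signal of a vehicle-treated mouse and 0.159 to 0.208% of that of a PB-treated mouse. These values follow from the choice of the DHSs and are given as a description.

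**Figure D1:**
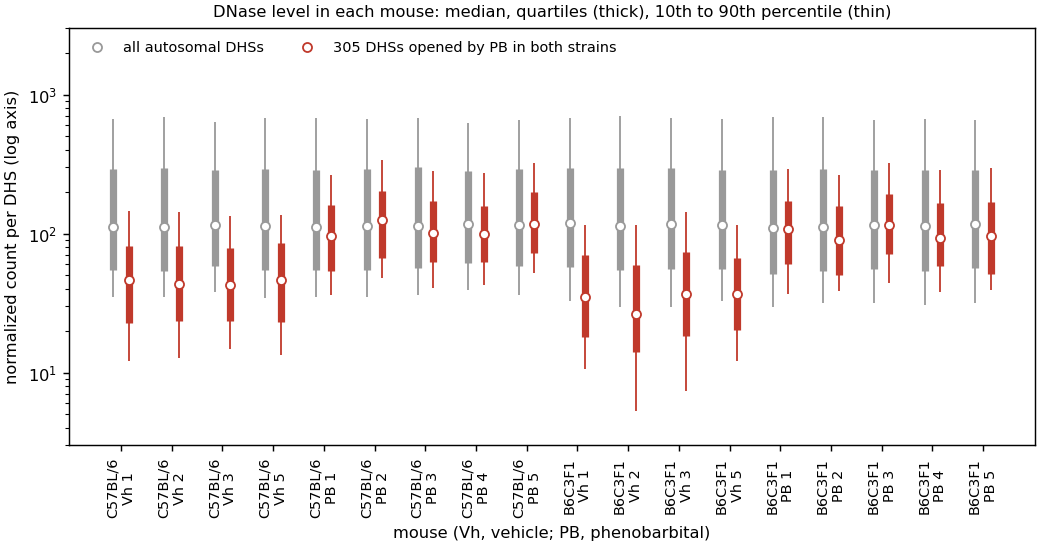
Normalized count per DHS (log axis) in each of the 18 mice, for all autosomal DHSs (grey) and the 305 DHSs opened by PB in both strains (red). Circles are medians, thick bars quartiles and thin bars the 10th to 90th percentiles. The red medians sit at 26.3 to 46.5 in the 8 vehicle-treated mice and at 90.3 to 124.7 in the 10 PB-treated mice, while the grey medians stay between 110.5 and 118.3.

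Mice that had no part in a choice showed the same direction. Of the 846 DHSs chosen in C57BL/6 alone, 36.05% also met the rule in B6C3F1, beside 1.00% of all autosomal DHSs. Their PB mean was above the vehicle mean in B6C3F1 in 89.0% of cases, beside 47.1% of all. Of the 967 DHSs chosen in B6C3F1 alone, 31.5% also met the rule in C57BL/6, beside 0.879% of all, and 85.7% had the higher PB mean there, beside 50.9%. When the rule was applied without 1 mouse, and that mouse was then read, it lay 1.5-fold or more on its treatment's side at 65.9 to 95.7% of the chosen DHSs. The corresponding share of all autosomal DHSs was 3.10 to 13.2%. Each left-out mouse was read against a mean of mice that did choose the DHSs, so part of this gap follows from the choice. The lowest share belonged to vehicle-treated B6C3F1 mouse 3, the mouse with the fewest reads, and the next to PB-treated C57BL/6 mouse 1 at 69.2%.

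The ratio of the PB mean to the vehicle mean had a median of 2.34 in C57BL/6 (range 1.503 to 13.2) and 2.73 in B6C3F1 (range 1.51 to 15.5). It was at least 2 in 198 of the 305 DHSs in C57BL/6 and in 246 in B6C3F1, and at least 4 in 41 and 63. Across the 305 DHSs, the log2 fold change (log2 FC) correlated between the strains with a Spearman's rho of 0.71 (Pearson's r 0.74). This is a description over DHSs that share the same mice.

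In a linear model (limma) on log2 of the normalized count plus 1, calls needed a |log2 FC| of at least 0.58 together with a false discovery rate (FDR, after Benjamini and Hochberg) of at most 0.01. In C57BL/6, 203 of the 305 DHSs were called higher with PB, where 0.329% of all DHSs were. In B6C3F1, 112 were, where 0.169% of all DHSs were. Both strains called 97 (31.8%, against 0.101% of all autosomal DHSs), and neither called 87 (28.5%, against 99.6%). The rule used these contrasts, so nothing is read from these counts. The B6C3F1 count went down to 73 without vehicle-treated mouse 1 and to 62, 46 and 61 without PB-treated mice 1, 3 and 4. With all 18 mice in the fit the counts were 119 in C57BL/6 and 235 in B6C3F1.

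The members nearest above the minimum were chr9:103715448-103715705 in Tmem108 (1.503 in C57BL/6), chr8:106280143-106280601 in Smpd3 (1.503) and chr2:157433999-157434302 in Src (1.51). The 3 autosomal DHSs nearest below it, whose groups also did not overlap, were chr7:25893221-25893475 near Cyp2b10, chr4:25998549-25999196 near Fut9 and chr9:103721100-103721414 in Tmem108. Their smaller ratios were 1.498, 1.49 and 1.49.

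The member with the largest ratio in the strain of the smaller response lay upstream of Cyp2b10. This DHS, chr7:25891833-25892442, was 5521 bp upstream of the Cyp2b10 TSS, between genes, and 610 bp wide. Its normalized counts were 72.5, 43.4, 70.1 and 70.9 in the vehicle-treated and 544, 713, 573, 584 and 619.6 in the PB-treated C57BL/6 mice. In B6C3F1 they were 58.1, 75.5, 81.2 and 62.2 under vehicle and 955, 760.5, 1058, 955 and 861 with PB. The lowest PB-treated mouse was thus 7.504 times the highest vehicle-treated mouse in C57BL/6 and 9.37 times in B6C3F1. The ratios of the means were 9.45 and 13.3.

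The Cyp2b10 promoter DHS, chr7:25897346-25897814, is 469 bp wide and overlaps an exon. It had 204, 183, 161 and 251 normalized counts in vehicle-treated and 1274, 1360.2, 1214, 1126 and 1149 in PB-treated C57BL/6 mice. In B6C3F1 the values were 205, 256, 218 and 206 and 1366, 1204, 1586, 1468 and 1461. Groups were far apart in both strains, with ratios of 6.14 and 6.41, and its PB mean over both strains was the highest of the 305 DHSs.

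Besides these 2 Cyp2b10 DHSs, the other 8 of the 10 members with the largest smaller ratio had 42 to 126 vehicle reads in all over 4 C57BL/6 mice and 15 to 68 over 4 B6C3F1 mice. In the intron of Micall2, the DHS chr5:139707213-139707476 had 2.71, 7.83, 10.2 and 8.56 normalized counts in vehicle-treated and 86.8, 138, 99.4, 78.6 and 79.1 in PB-treated C57BL/6 mice. Its B6C3F1 values were 6.34, 7.02, 14.8 and 1.35 and 69.3, 46.5, 82.5, 64.6 and 46.04. These vehicle values rested on 47 reads over 4 C57BL/6 mice and 15 reads over 4 B6C3F1 mice. The DHS chr10:75675311-75675517 in Cabin1 had ratios of 8.61 and 9.24, from 44 and 16 vehicle reads. The DHS chr7:34981828-34982026 in Pepd, which encodes a dipeptidase, had ratios of 9.32 and 8.06, from 42 and 30 reads. Between genes, chr6:99774733-99775277 near Prok2 had 9.24 and 7.64, and chr5:80260533-80261128, 759741 bp from the TSS of Adgrl3, had 9.86 and 5.97. Over all 305 DHSs, 71 (23.3%) had a vehicle-treated mouse with at most 3 reads, beside 3.49% of all autosomal DHSs, and ratios of such sites carry a large counting error.

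The 305 DHSs were wider than other DHSs of their vehicle level, though not wider than DHSs in general. Their median width was 288 bp (range 118 to 955, quartiles 214 and 400), against 316 bp over all autosomal DHSs. Autosomal DHSs with a vehicle mean between the quartiles of the 305, which are 22.6 and 76.8 normalized counts, had a median width of 215 bp (n = 33423). The 153 members in that range of levels had a median of 286 bp. DHSs that met the rule in only 1 strain had medians of 229 bp (C57BL/6, n = 541) and 267 bp (B6C3F1, n = 662). The authors' peaks were merged over all 18 mice, so a width also reflects peaks of PB-treated mice. None of the 305 reached 1000 bp, where 2.17% of all autosomal DHSs did. The widest lay in Mup17 (chr4:61591160-61592114, 955 bp), Klhl32 (chr4:24620242-24621114, 873 bp) and at the Colca2 promoter (chr9:51278447-51279319, 873 bp). The narrowest lay in Cyp2c53-ps (chr19:39257464-39257581, 118 bp), at the Elovl1 promoter (chr4:118429594-118429720, 127 bp) and in Cdkal1 (chr13:29248677-29248807, 131 bp).

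The vehicle mean over all 8 vehicle-treated mice had a median of 41.02 in the 305 DHSs and 115 in all autosomal DHSs. It was below the median of all autosomal DHSs in 270 of the 305 (88.5%) and in the lowest 25% in 203 (66.6%). The PB mean had a median of 106 against 115, and 46.6% of the 305 were above the median of all under PB. Per 100 bp of width, the vehicle median was 13.9 normalized counts in the 305 DHSs, 21.1 in DHSs of the same vehicle levels and 36.7 in all. A low vehicle mean makes a given ratio easier to reach, and the rule used the vehicle mean, so its level is a description.

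**Figure D2:**
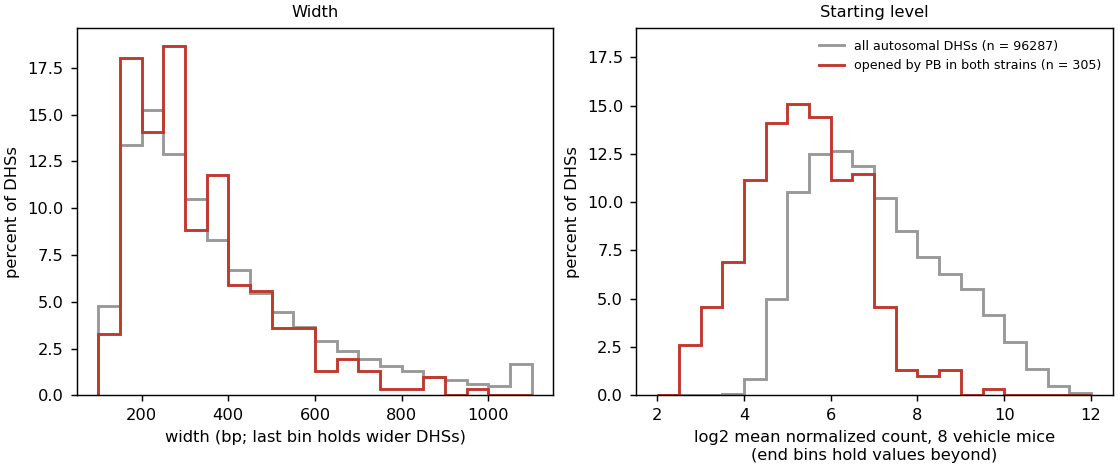
Share of DHSs by width in bp (left) and by log2 of the mean normalized count of the 8 vehicle-treated mice (right), for the 305 DHSs opened by PB in both strains (red) and all 96287 autosomal DHSs (grey). The widths largely overlap (medians 288 and 316 bp), whereas the vehicle levels of the 305 DHSs are shifted to lower values (medians 41.0 and 115 normalized counts).

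Among the 305, lower vehicle levels went with narrower DHSs and larger ratios. In 4 groups of 76 or 77 DHSs from the lowest to the highest vehicle mean, the median width was 198, 262.5, 319.5 and 442.5 bp. The median ratio was 3.54, 2.44, 2.07 and 1.86 in C57BL/6 and 4.25, 2.66, 2.51 and 2.15 in B6C3F1. The correlation of width with vehicle mean was a Spearman's rho of 0.65 over the 305 and 0.80 over all autosomal DHSs. The smaller ratio had a rho of -0.58 with the vehicle mean, which is also its denominator, and of -0.11 with width.

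Most of the 305 DHSs lay away from promoters. By RefSeq annotation, 17 (5.57%) overlapped the 1000 bp upstream of a TSS, against 14.02% of all autosomal DHSs and 4.25% of those of the same vehicle levels. Introns were overlapped by 141 (46.2%, against 42.6% of all and 48.4% at the same vehicle levels), exons by 29 (9.51%, against 18.4% and 8.38%), and 131 (42.95%, against 37.5% and 41.99%) lay between genes. The median distance from the centre to the nearest TSS was 25.98 kb, against 16.8 kb for all and 25.2 kb at the same vehicle levels. The distance was over 100 kb for 50 DHSs (16.4%, against 11.3% of all and 15.3% at the same vehicle levels). All these values of the 305 were closer to those of DHSs at the same vehicle levels than to those of all. Only 153 of the 305 lie in that range of levels, so the other members are not matched by it.

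The 17 promoter DHSs were at Cyp2b10, Cyp2b13, Cyp2c53-ps, Cyp2c55, Gstm3, Slc13a2, Orm3, Pnliprp1, Elovl1, Adamtsl1, Ttc39a, Colca2, Gm20275, Mir145b, 9230116L04Rik and Nebl, the last with 2. Drug-metabolism genes among these are the P450 genes Cyp2b10, Cyp2b13 and Cyp2c55 and the glutathione transferase Gstm3. Their ratios in C57BL/6 ran from 1.51 at Slc13a2, which encodes a dicarboxylate transporter, to 6.14 at Cyp2b10. The Nebl promoter DHS chr2:17731002-17731437 had 34.1, 35.6, 42.5 and 33.01 normalized counts in vehicle-treated and 105, 125, 92.5, 110.0 and 166 in PB-treated C57BL/6 mice. In B6C3F1 its values were 27.5, 35.1, 18.5 and 31.1 and 229.9, 176, 186, 145 and 145. Nebl encodes the actin-binding protein nebulette.

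The 305 DHSs were spread over the 19 autosomes but lay partly in runs. Chromosome 19 held 35 (1.01% of its DHSs) and chromosome 15 held 2 (0.0484%). The median distance from a member to the nearest other member was 85.2 kb, where that between neighbouring DHSs of any kind was 3.2 kb. The first is over 305 DHSs and the second over 96287, so they cannot show whether members cluster. No set of equal number was compared, here or for the shares that follow. Within 5 kb of another member were 86 of the 305 (28.2%), within 50 kb 143 (46.9%). Joining members whose centres were at most 50 kb apart gave 207 loci, of which 45 held 2 or more members and 8 held 4 or more, with 57 members in those 8. A gap of 20 kb gave 222 loci and a gap of 100 kb gave 198, again with 8 of 4 or more members each time.

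The longest run lay in the Cyp2c gene cluster, chr19:39169858-39333140, which spans 163.3 kb. Of its 29 DHSs, 23 were members, with 9 nearest to the TSS of Cyp2c53-ps, 9 to that of Cyp2c29, 4 to that of Cyp2c39 and 1 to that of Cyp2c66. CYP2C enzymes oxidize drugs, steroids and fatty acids. Ratios within the run were 1.59 to 7.71 in C57BL/6 and 1.93 to 15.5 in B6C3F1, and the highest in both were at chr19:39176281-39176970 in Cyp2c66. That DHS had 17.9, 24.9, 17.4 and 20.8 normalized counts in vehicle-treated and 128, 187, 120.0, 169.9 and 175 in PB-treated C57BL/6 mice. In B6C3F1 it had 38.01, 21.1, 7.38 and 24.3 and 491, 265, 444, 295 and 266. The DHS over the Cyp2c29 TSS, chr19:39286788-39287252, was not a member, with ratios of 1.21 and 1.249. Of the 23 windows, 15 were at least 50% repeat-masked, where 12 of the other 282 members were, and reads of repeats and of Cyp2c paralogs may be placed on another copy. Which part this had in the values was not tested.

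**Figure D3:**
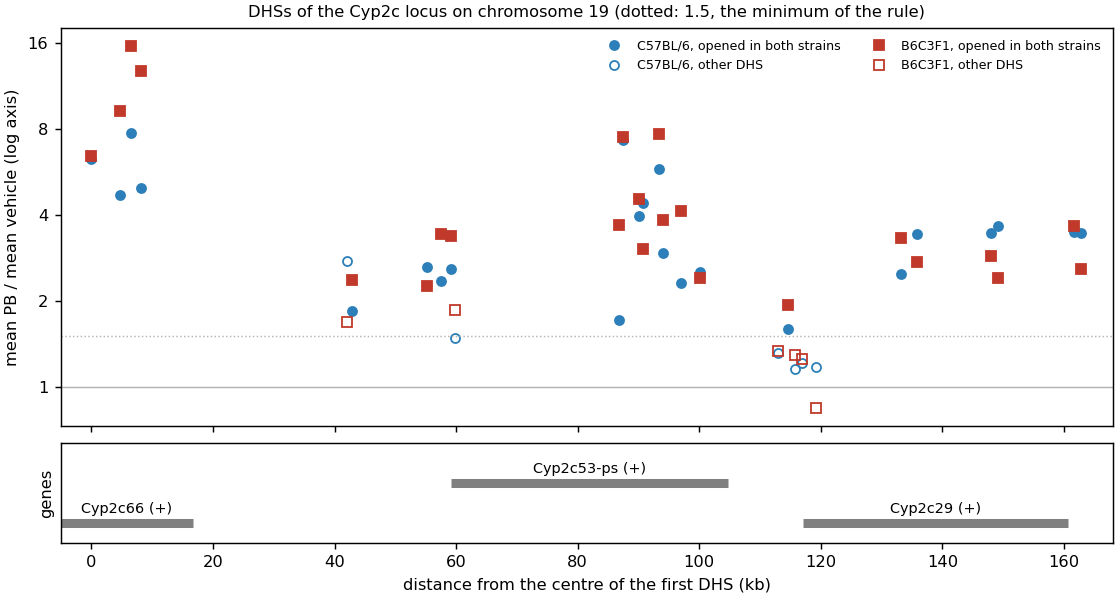
Ratio of the PB mean to the vehicle mean (log axis) for the 29 DHSs of the Cyp2c locus on chromosome 19, in C57BL/6 (circles) and B6C3F1 (squares), against the distance in kb from the centre of the first DHS, with the genes below. Filled symbols are the 23 members, all above the dotted minimum of 1.5, and open symbols the other 6, which include the DHS over the Cyp2c29 TSS at 1.21 and 1.249.

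The Cyp2b10 locus, chr7:25868340-25904402, held 5 members among 10 DHSs. Besides the upstream DHS and the promoter DHS described above, these were chr7:25887730-25888432, 9577 bp upstream (ratios 2.41 and 2.798), chr7:25868340-25868544, 29216 bp upstream (2.71 and 5.18), and chr7:25904146-25904402 in an intron (1.89 and 1.53). The Gstm locus, chr3:107916726-107978016, held 4 of 17 DHSs as members, with ratios of 1.70 to 2.17 in C57BL/6 and 1.61 to 2.34 in B6C3F1. It codes for mu-class glutathione transferases. The Mup locus, chr4:61777449-61809299, held 4 of 11, and Mup genes encode major urinary proteins, a family of near-identical secreted carriers of pheromones.

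In the 4 other runs of 4 or more, every DHS in the span was a member, and the ends of a span are members by construction. At Adamtsl1, which encodes a secreted ADAMTS-like protein, 6 members lay within chr4:86053627-86111809, from the promoter into the introns, with ratios of 1.84 to 3.58 in C57BL/6 and 2.21 to 4.84 in B6C3F1. At Nebl, 4 lay within chr2:17710077-17732419 (1.61 to 3.30 and 1.69 to 6.30). At Colca2 and Pou2af1, 5 lay within chr9:51230780-51279319 (1.58 to 4.09 and 1.74 to 3.24). On chromosome 13, 6 lay within chr13:23285317-23317800 (2.53 to 3.75 and 2.38 to 2.99) near 3 genes known by clone names, 4930557F10Rik, 4930586N03Rik and 4933404K08Rik. Runs of 3 included those at Ackr3, Bmp7, Pnliprp1, Fam171a1 and Pepd.

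DR4 elements were more frequent in the 305 windows than in all, but most of the 305 had none. A DR4 was searched as any 2 of the 4 element forms named above in the same direction with any 4 bases between them, on both strands of the 300 bases around each centre. It was present in 12 of the 305 windows (3.93%), against 0.255% of all autosomal windows and 0.293% of those of the same vehicle levels. Of DHSs that met the rule in only C57BL/6 or only B6C3F1, 1.11% and 1.06% held one. With the same elements 0, 1, 2, 3, 5 or 6 bases apart, 1 or 2 of the 305 windows held a match. At 3, 5 and 6 bases apart this was 0.656% each, against 0.184, 0.269 and 0.231% of all autosomal windows. At 0, 1 and 2 bases apart it was 0.656, 0.656 and 0.328%, against 0.655, 0.879 and 0.456%. The form AGTTCA followed by itself made up 35 of the 42 DR4 matches, in 7 DHSs, and the 2 DHSs chr12:42228204-42228669 and chr14:89668707-89669212 held 14 matches each, in tandem arrays of the element. Where the printed windows show the DR4, the ratios were 6.46 and 5.11 near Gm16497, 4.99 and 4.84 in Rnps1, 1.84 and 2.21 in Adamtsl1, and 1.83 and 2.67 in Stat3.

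The single element AGGTCA was present in 40.98% of the 305 windows and 28.2% of all. The AP-1 element TGANTCA was present in 18.03% against 10.7%. The forkhead (FOXA) element TGTTTAC or TGTTTGC stood at 16.7% against 15.5%, the C/EBP element TTGCNNAA at 22.6% against 18.8%, and the STAT element TTCNNNGAA at 8.85% against 10.6%. The full palindrome of NF1 was in none of the 305 and in 0.107% of all. At the same vehicle levels, AGGTCA was present in 28.37% and the AP-1 element in 11.6%. In DHSs that met the rule in only C57BL/6 or only B6C3F1, AGGTCA was present in 36.23% and 32.18%. The AP-1 element was present in 17.01% and 17.82% of them, so its higher share was not particular to the 305. Windows of the 305 had a median GC content of 47.0% against 47.7%, and 8.67% against 8.33% of their bases were repeat-masked in the median. A match is a description of the letters and not a bound site.

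The response was larger in B6C3F1 for most of the 305 DHSs, but no single DHS passed the cutoffs for a strain difference. The log2 FC in B6C3F1 minus that in C57BL/6 had a median of 0.21, against -0.01 over all autosomal DHSs, and was above 0 for 220 of the 305 (72.1%, against 48.2% of all). In limma over all 18 mice, 0 of 98170 DHSs (0%) passed the cutoffs for this difference, and the lowest FDR among the 305 was 0.199. The edgeR quasi-likelihood test on reads also called 0. At an unadjusted p under 0.05 there were 46 of the 305 (15.1%), against 5.42% of all, and all 46 were larger in B6C3F1. In DHSs that met the rule in only C57BL/6 or only B6C3F1 the share was 17.4% and 48.0%, always larger in the strain that met it. A raised share was thus not particular to the 305. The difference was at least 1 on the log2 scale, in either direction, for 25 of the 305 (8.20%). That share was 1.75% of all autosomal DHSs and 3.37% at the same vehicle levels. It was 10.5% and 16.8% of DHSs that met the rule in only C57BL/6 or only B6C3F1. Under quantile normalization the median over the 305 was 0.09 and 171 of them were larger in B6C3F1. The same mice chose the DHSs and gave these differences.

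**Figure D4:**
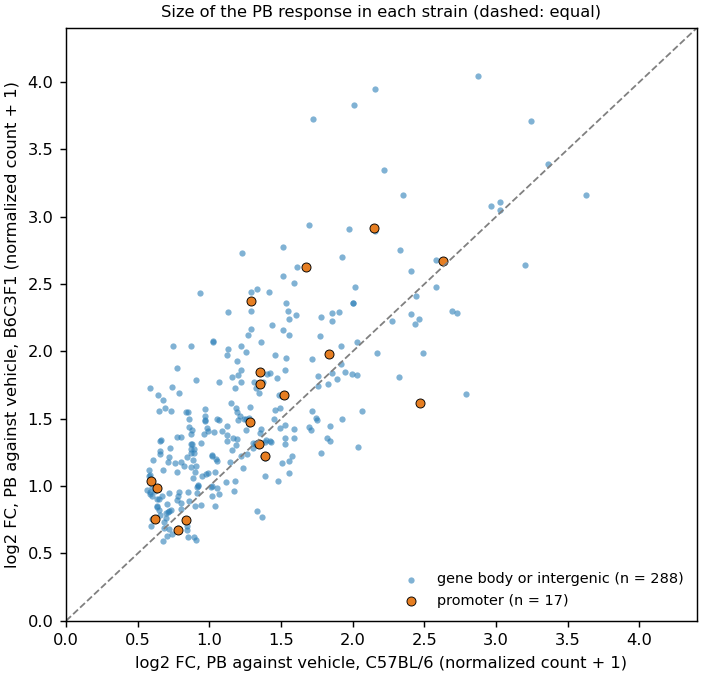
Log2 FC of PB against vehicle on log2(normalized count + 1) in B6C3F1 (y axis) against C57BL/6 (x axis) for the 305 DHSs, with the 17 promoter DHSs in orange and the other 288 in blue. The dashed line marks equal responses, and 220 of the 305 DHSs lie above it.

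The lowest FDR for a strain difference was at chr4:61807955-61808455 in the Mup locus. It had 343, 259, 268 and 344 normalized counts in vehicle-treated and 473, 483, 504, 525 and 529 in PB-treated C57BL/6 mice. In B6C3F1 it had 176, 133, 173 and 179.8 and 505, 498, 639, 553 and 563. The PB values overlapped between the strains, whereas the vehicle levels of the 4 B6C3F1 mice were below those of the C57BL/6 mice. The difference in log2 FC was 1.00 ± 0.17 (SE). All 4 members of that locus had the larger response in B6C3F1 (differences of 0.33 to 1.163), as had the 4 at Nebl (0.05 to 0.96), while on chromosome 13 only 1 of 6 had.

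The 5 largest differences toward B6C3F1 were 2.00 at chr12:42221082-42221369 near Lrrn3, 1.82 at chr17:15131521-15131713 near Ermard, 1.79 at chr19:39178017-39178293 in Cyp2c66, 1.503 at chr13:59506544-59506737 in Agtpbp1 and 1.503 at chr1:189830827-189830994 in Ptpn14. The first had 10.6, 5.27, 3.69 and 1.35 normalized counts in vehicle-treated and 91.4, 49.2, 85.6, 61.6 and 67.3 in PB-treated B6C3F1 mice. Its C57BL/6 values were 20.02, 21.4, 7.64 and 9.78 and 29.6, 69.8, 29.3, 55.99 and 64.8. The vehicle values of B6C3F1 rested on 15 reads in 4 mice. Toward C57BL/6, the largest were -1.11 at chr18:32506799-32506972 near Gm35060, -0.85 at chr9:59940960-59941121 at the Gm20275 promoter, -0.75 at chr7:48997030-48997210 in Nav2, -0.60 at chr3:100785553-100785829 near Vtcn1 and -0.56 at chr5:80260533-80261128 near Adgrl3.

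Under vehicle, the 305 DHSs were on balance less accessible in B6C3F1. The log2 difference of B6C3F1 minus C57BL/6 had a median of -0.37, against -0.04 over all autosomal DHSs and -0.16 at the same vehicle levels. In DHSs that met the rule in only C57BL/6 or only B6C3F1, the median was -0.15 and -0.54. Among the 305, the difference passed the cutoffs as higher in B6C3F1 for 7 (2.30%, where 6.14% of all DHSs were) and as lower for 23 (7.54%, where 4.34% were). The rule used the vehicle values, so the difference is a description. Depth moved with this difference. Vehicle-treated B6C3F1 mice had a median of 10 to 33 reads per member, and vehicle-treated C57BL/6 mice 38 to 100. A member was at the lowest value of 1 read in 28 cases in vehicle-treated B6C3F1 mouse 3 and 19 in mouse 2. In the 234 members whose 8 vehicle-treated mice all had over 3 reads, the median strain difference in response was 0.18, and 163 were larger in B6C3F1. How far depth enters the difference was not tested further.

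RNA is a readout that the choice of the DHSs did not use. The 305 DHSs had 215 nearest genes by TSS, of which 131, nearest to 194 of the DHSs, were expressed at 0.4 CPM or more in at least 3 mice of a group and were tested. In limma on log2(CPM + 0.1) over all 18 mice, with the same cutoffs, 28 of the 131 (21.4%) rose with PB in C57BL/6, where 0.845% of all 13838 genes did, and 33 (25.2%) rose in B6C3F1, where 1.55% did. Of the 131, 26 rose in both strains (19.8%, against 0.694% of all genes). In at least 1 strain 35 rose, where 236 of 13838 genes did. None fell in C57BL/6 (0.0289% of all genes did), and 1 fell in B6C3F1 (0.448% of all did). Without the genes on chromosome 19, 21 and 26 of 122 rose. The remaining 96 nearest genes passed the cutoffs upward in neither strain.

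Genes with an opened DHS near the TSS rose more often than those with a distant one. Of 39 genes whose closest member lay within 10 kb of the TSS, 21 rose in C57BL/6, 26 in B6C3F1 and 27 in either. At 10 to 100 kb it was 7 of 71 in either strain, and beyond 100 kb 1 of 21. Of all genes with any DHS within 10 kb of a TSS, 0.913% rose in C57BL/6 and 1.64% in B6C3F1, and 213 of 11825 rose in either. Of the 12489 tested nearest genes of any autosomal DHS, 222 rose in either. Of the 13 tested genes with a promoter member, 12 rose in at least 1 strain, the exception being 9230116L04Rik, a transcript at 0 to 0.684 CPM. By number of members, 25 of 102 genes with 1, 2 of 14 with 2 and 8 of 15 with 3 or more rose in at least 1 strain. The share thus did not rise steadily with the number. Seen from the genes, 37 of 91 genes that rose in both strains and could be placed had a member within 100 kb of a TSS (40.7%), against 2.50% of all tested genes. The nearest genes of DHSs that met the rule in only C57BL/6 rose in 11.4 and 15.0% of cases in C57BL/6 and B6C3F1, and those of DHSs that met it in only B6C3F1 in 6.73 and 14.2%.

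**Figure D5:**
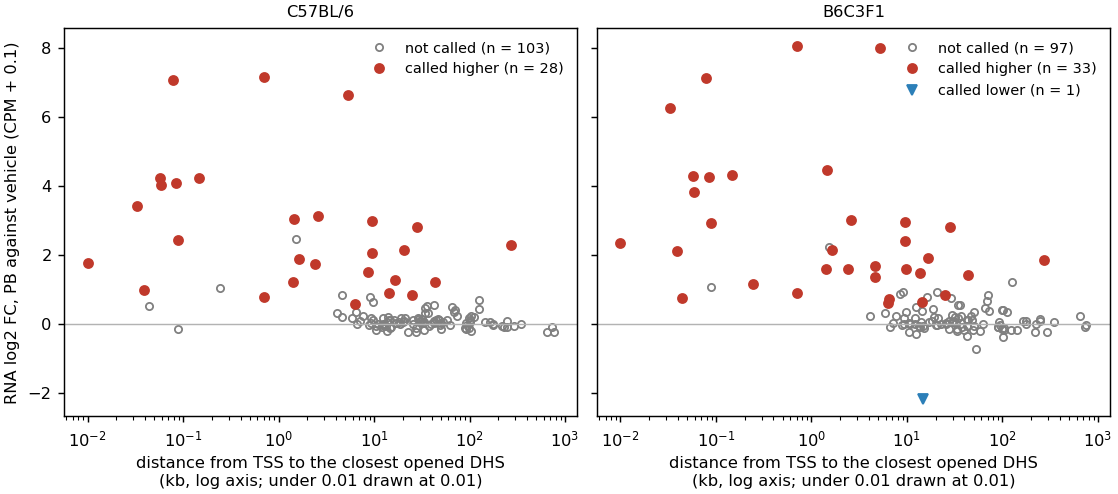
RNA log2 FC of PB against vehicle on log2(CPM + 0.1) for the 131 tested nearest genes, against the distance in kb (log axis) from the TSS to the closest of the 305 DHSs, in C57BL/6 (left) and B6C3F1 (right). Red circles passed the cutoffs upward (28 and 33 genes), the blue triangle downward (1 gene), and grey circles did not pass. Most red circles lie within 10 kb.

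Of the gene lists examined, that of the cytochrome P450s was nearest to the most members, and several of its genes rose. The 75 tested P450 genes were nearest to 33 of the 305 DHSs (10.8%, against 0.522% of all autosomal DHSs), through 8 genes. Of these 33, 23 lay in the single Cyp2c run on chromosome 19 and 5 were nearest to Cyp2b10. Of all 75, 15 rose in C57BL/6, and 17 rose and 6 fell in B6C3F1. Cyp2b10 (chr7:25897658-25926624) had 7.92, 8.35, 7.53 and 11.1 CPM in vehicle-treated and 897, 1489, 1063, 1196 and 1323 CPM in PB-treated C57BL/6 mice. In B6C3F1 it had 16.7, 8.36, 16.4 and 5.51 and 1662, 1179, 1737, 1381 and 1634 CPM. Groups did not overlap in either strain. Its log2 FC was 7.07 ± 0.28 (SE, limma FDR 6.72e-10) and 7.13 ± 0.28 (FDR 4.66e-10).

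Cyp2b13, a P450 that is usually more abundant in females, rose in both strains, with 0.321 to 0.861 CPM under vehicle and 58.04 to 119 CPM with PB in C57BL/6, and 0 to 0.317 CPM under vehicle and 45.97 to 94.2 CPM with PB in B6C3F1. Its promoter DHS, chr7:26060590-26060989, had ratios of 3.47 and 3.95. Cyp2c55 had 14.02, 17.4, 23.3 and 14.7 CPM in vehicle-treated and 243, 449, 243, 332 and 415 CPM in PB-treated C57BL/6 mice. Its log2 FC was 4.25 ± 0.20 in C57BL/6 and 4.34 ± 0.20 in B6C3F1 (limma FDR 4.29e-09 and 2.43e-09). Near-identical Cyp2b and Cyp2c copies may share reads, so values of single family members are uncertain.

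Of the 4 genes nearest to members of the long Cyp2c run, 3 rose in both strains. Cyp2c66 was listed at 0 CPM in 3 of 4 vehicle-treated mice of each strain, with 1 read in the other, and reached 7.04 to 15.9 CPM with PB in C57BL/6 and 23.8 to 32.99 CPM in B6C3F1. Cyp2c53-ps, annotated as a pseudogene, rose in both strains, with 5.92 to 8.53 CPM under vehicle and 118 to 157 CPM with PB in C57BL/6, and 6.69 to 11.99 CPM under vehicle and 139 to 178 CPM with PB in B6C3F1. Cyp2c29 (chr19:39287085-39330713), one of the most abundant liver P450s, rose from 1875 ± 151 (SD, n = 4) to 6314 ± 588 (SD, n = 5) CPM in C57BL/6 and from 2554 ± 284 to 7724 ± 694 CPM in B6C3F1. Cyp2c39, nearest to 4 members at 14568 bp or more, was the gene called lower, in B6C3F1 only, and that call was lost in 7 of the 9 fits that left out 1 B6C3F1 mouse (FDR up to 0.0155), the exceptions being PB-treated mice 2 and 5. It had 53.2, 55.9, 78.4 and 60.3 CPM in vehicle-treated and 8.95, 25.2, 6.51, 10.2 and 31.6 CPM in PB-treated B6C3F1 mice (log2 FC -2.16 ± 0.42, limma FDR 0.00451). In C57BL/6 it stood at 2.23 to 3.53 and 1.48 to 4.099 CPM, and the groups overlapped. The strain difference of Cyp2c39 did not pass the cutoffs, and the gene was named after its values were seen. Farther along the chromosome, Cyp2c37, with a member 9456 bp from its TSS, rose by 2.06 ± 0.16 and 2.98 ± 0.16 on the log2 scale (limma FDR 7.65e-07 and 5.75e-09).

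Of 70 tested phase II genes, which encode conjugating enzymes, 18 rose in C57BL/6 and 16 in B6C3F1, and 4 of them were nearest to 5 of the 305 DHSs (1.64%, against 0.422% of all). Gstm3 had 19.3, 18.4, 27.1 and 19.3 CPM in vehicle-treated and 217, 457, 276, 354 and 496 CPM in PB-treated C57BL/6 mice. In B6C3F1 it had 26.5, 32.6, 40.4 and 22.9 and 659, 272, 732, 481 and 242 CPM, and no groups overlapped. Its log2 FC was 4.04 ± 0.34 and 3.85 ± 0.34 (limma FDR 3.76e-06 and 3.57e-06), whereas its promoter DHS changed by ratios of 1.71 and 1.61. Gstt3 rose by 1.24 ± 0.10 and 1.62 ± 0.10 (limma FDR 2.87e-07 and 5.02e-09). Gstm2 rose in C57BL/6 (1.51 ± 0.28, limma FDR 0.00565) and was at 0.90 ± 0.28 with an FDR of 0.0569 in B6C3F1. Its C57BL/6 call was lost when any C57BL/6 mouse but PB-treated mouse 1 was left out. Gstm7 was within 0.10 of no change on the log2 scale in both strains (FDR 0.764 and 0.801).

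Among 312 transporter genes, 8 rose in C57BL/6, and 13 rose and 3 (Slc16a11, Slc16a13 and Slc25a22) fell in B6C3F1, and 7 were nearest to 1 of the 305 DHSs each (2.30%, against 1.90% of all). Abcc4, an efflux pump of conjugates and nucleotides, rose in both strains, with 2.93 to 4.99 CPM under vehicle and 32.8 to 41.4 CPM with PB in C57BL/6, and 2.68 to 4.33 CPM under vehicle and 18.9 to 43.03 CPM with PB in B6C3F1. The member in its intron, chr14:118674191-118674451, had ratios of 2.13 and 3.41. Slc13a2 rose by 1.00 ± 0.22 in C57BL/6 (limma FDR 0.00986) and by 2.13 ± 0.22 in B6C3F1 (FDR 6.54e-07). The C57BL/6 call was lost under the edgeR quasi-likelihood test, with a pseudocount of 1 and in most fits that left out 1 mouse.

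Of 19 growth and stress signalling genes, 1 rose in C57BL/6 (Gadd45b) and 3 in B6C3F1 (Gadd45b, Ahr and Tgfbr2), and 7 of the 19 were nearest to 11 of the 305 DHSs (3.61%, against 0.291% of all). Gadd45b, a stress-induced gene, rose in both strains (2.83 ± 0.49 and 2.82 ± 0.49, limma FDR 0.00229 and 0.00126). It had 0.441, 0.437, 0.352 and 1.27 CPM in vehicle-treated and 11.6, 2.43, 5.86, 5.94 and 1.84 CPM in PB-treated B6C3F1 mice, and its C57BL/6 call was lost under the edgeR quasi-likelihood test and without vehicle-treated C57BL/6 mouse 1. Its member, chr10:80957847-80958280, lay in an intron of Gng7 at 27972 bp, with ratios of 2.43 and 2.91. Ackr3, a scavenging chemokine receptor with 3 members, had a log2 FC of 2.49 ± 0.56 and 2.25 ± 0.56, and its FDR of 0.0208 and 0.0173 missed the cutoff. Stat3, a cytokine-activated transcription factor, had 0.06 ± 0.05 and 0.09 ± 0.05, and the secreted factor Bmp7, with 3 members 112513 bp or more away, had 0.22 ± 0.20 and 0.35 ± 0.20. Neither passed the cutoffs. Of 32 other oxidoreductase and cofactor genes, the same 5 rose in each strain (Akr1b7, Ces1d, Ces2a, Ces2c and Por). None of these 5 was nearest to a member, and Akr1b8, which was, did not pass. None of the 9 tested nuclear receptors and partners passed or was nearest to a member.

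Genes outside these lists included some of the largest RNA changes. Nebl had 0.8204, 0.607, 0.443 and 0.352 CPM in vehicle-treated and 6.03, 14.2, 7.84, 11.3 and 18.1 CPM in PB-treated C57BL/6 mice. In B6C3F1 it had 0.542, 1.18, 1.37 and 0.9303 and 26.9, 13.5, 30.4, 22.00 and 14.4 CPM. Its log2 FC was 4.09 ± 0.34 and 4.28 ± 0.34 (limma FDR 1.11e-06 and 4.25e-07). Adamtsl1 rose by 1.78 ± 0.17 and 2.37 ± 0.17 (limma FDR 4.55e-07 and 3.26e-09). Orm3, which encodes an acute-phase protein, rose by 2.45 ± 0.18 and 2.95 ± 0.18. Fam171a1 rose by 1.29 ± 0.20 and 1.92 ± 0.20, and Gna14, a G protein alpha subunit, by 1.24 ± 0.11 and 1.44 ± 0.11. Tmeff2, 1700067K01Rik and Fam19a2, all at 1.57 CPM or less in every vehicle-treated mouse, also rose in both strains, Tmeff2 in C57BL/6 only with vehicle-treated mouse 2 in the fit. Vtcn1, an immune checkpoint ligand, rose in C57BL/6 (2.15 ± 0.26, limma FDR 1.72e-05) and had 0.94 ± 0.26 with an FDR of 0.0255 in B6C3F1, where it passed with DESeq2, edgeR or a larger pseudocount. Gdf15, a stress-induced cytokine, rose in B6C3F1 (1.68 ± 0.35, limma FDR 0.00491). In C57BL/6 its log2 FC was 0.87 ± 0.35 with an FDR of 0.283, and the B6C3F1 call was lost without PB-treated mouse 1, 3 or 4 or vehicle-treated mouse 1 or 2. Mup9 rose in both (3.01 ± 0.41 and 2.42 ± 0.41), with reads that other Mup genes may share.

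For the RNA of the nearest genes, no strain difference in response passed the cutoffs in limma (0% of all genes) or in the edgeR quasi-likelihood test. At an unadjusted p under 0.05 there were 17 of 131, where 1093 of 13838 genes were. The lowest FDR was 0.0897, for Pnliprp1, a lipase-related protein of the pancreas. Pnliprp1 had 0.713, 0.0759, 0.0402 and 0.235 CPM in vehicle-treated and 2.38, 3.52, 2.83, 3.39 and 2.87 CPM in PB-treated C57BL/6 mice. In B6C3F1 it had 0.136, 0.0672, 0 and 0 and 14.4, 7.604, 12.8, 12.6 and 8.46 CPM. The PB levels of the strains did not overlap, and the log2 FC was 3.42 ± 0.39 against 6.28 ± 0.39. Its promoter DHS, chr19:58728721-58729119, had ratios of 2.49 and 4.61, and all 3 DHSs nearest to it had the larger response in B6C3F1.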

How the data were processed

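DNase-seq and RNA-seq values of 18 mice were grouped by the sample labels, with 5 mice on PB and 4 on vehicle per strain. The authors cut liver nuclei with DNase I, aligned paired reads to mm10 with Bowtie2 2.1.0, called peaks per mouse with MACS2 and counted reads with DiffBind 1.16.3 in regions found in at least 3 samples. The deposited DNase signal is the read count of a DHS scaled by a single factor for each mouse. For RNA-seq, the authors aligned reads with STAR 2.4.0f1 and deposited a signal in CPM after TMM scaling with edgeR 3.12.1. Tool versions are from the submitters' processing notes and the methods. Between 7.01 and 58.1 M reads per mouse lay in DHSs and 23.8 to 30.3 M in genes, and the factors give back whole reads, within 0.01, in both tables. No sample column was left unused.

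The members, gene lists and tests were chosen with earlier results of these data known. Values were tested with R 4.3.3, limma 3.58.1 (trend, robust) on log2(value + 1) for DNase-seq, within the 9 mice of a strain for PB, within the 8 vehicle-treated mice for strain and over all 18 for the difference in response, and on log2(CPM + 0.1) for RNA-seq over all 18. Such fold changes understate changes at low levels. Alternatives used edgeR 4.0.16 and DESeq2 1.42.0 on the recovered reads. The tests were checked on simulated counts. TSSs, genes and sequences were from RefSeq GRCm38.p6, read with Python 3.11.15 and samtools 1.23.1, and gene symbols were matched by name or synonym.

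Named are the 10 members with the largest smaller-of-both-strains ratio, the loci of 4 or more members, the 3 widest and 3 narrowest, the 5 with the largest strain difference in each direction, the 3 on each side of the fold minimum, and the 25 nearest genes of the largest mean RNA change among those called, besides members named by a gene described. Members were compared with all autosomal DHSs and with those of the same vehicle levels, with no test. The authors' own comparisons were not used. The result of 1 further list of cell type markers is not reported here. Chi-square tests of reads found every pair of mice in a group to differ beyond sampling noise (at least 3.31 per degree of freedom), so no library was counted more than once.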

Additional observations from a re-analysis of the deposited data

Results flagged for a closer look

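Of 144 groups of mice examined for the named DHSs and genes, 8 held a mouse far from the other mice of its group, and chance gives about 1 in 20. At the Cyp2b10 upstream DHS, chr7:25891833-25892442, vehicle-treated C57BL/6 mouse 2 had 43.4 normalized counts, and the other 3 had 70.1 to 72.5. Cyp2c66 RNA was at 0.0357 CPM in vehicle-treated C57BL/6 mouse 1 and 0.0339 CPM in vehicle-treated B6C3F1 mouse 1, 1 read each, and at 0 in the other vehicle-treated mice. Cyp2c53-ps was at 11.99 CPM in vehicle-treated B6C3F1 mouse 2 (others 6.69 to 7.05). Gstm3 was at 27.1 CPM in vehicle-treated C57BL/6 mouse 3 (others 18.4 to 19.3). Gadd45b was at 1.27 CPM in vehicle-treated B6C3F1 mouse 5 (others 0.352 to 0.441). Orm3 was at 3.39 CPM in vehicle-treated B6C3F1 mouse 1 (others 1.55 to 1.86). Cyp2c29 was at 8907 CPM in PB-treated B6C3F1 mouse 5 (others 7184 to 7660).

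Outside the autosomes, 2 DHSs met the same rule, both on chromosome X. The DHS chrX:129709771-129709943, nearest to Diaph2, had ratios of 1.83 in C57BL/6 and 4.33 in B6C3F1. The DHS chrX:134529004-134529312, nearest to Timm8a1, had ratios of 2.26 and 6.44.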

How the results depend on the processing

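The number of DHSs that met the rule was 189 with a minimum of 2, and 297 to 419 when 1 mouse was left out. Called members numbered 154 to 192 in C57BL/6 and 46 to 133 in B6C3F1 when 1 mouse was left out, 119 and 235 with all 18 mice in the fit, and 225 in B6C3F1 with DESeq2. The B6C3F1 count was most affected by PB-treated mouse 3 (46 without it). The median strain difference in response was 0.15 to 0.27 and the number of members larger in B6C3F1 195 to 233 when 1 mouse was left out, and 0 members passed the cutoffs for a strain difference in each of those fits. Nearest genes that rose numbered 24 to 30 in C57BL/6 and 28 to 34 in B6C3F1. Mice that end in the same digit are different animals of different treatments, so the digit does not pair samples of 1 animal. Their deviations correlated at -0.20 to 0.24. Mice of different digits were not correlated, so whether the digit marks some other grouping cannot be told. With a replicate block on that digit, called members numbered 195 in C57BL/6 and 52 in B6C3F1, and nearest genes that rose 25 and 31. Of 72 results of a gene in a strain, 16 changed side of the cutoffs in at least 1 of 25 alternatives, and 0 reversed. Only members whose vehicle-treated mice all had over 3 reads, a choice made after the values were seen, gave 149 and 88 calls in 234 DHSs. Depth limits the low vehicle levels most, above all in vehicle-treated B6C3F1 mice 2 and 3. The causes of these shifts were not tested.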
